A study of Capra hircus with 6 samples.

Results

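A set of 10 genes of the Notch pathway was followed in the ovary of 6 goats (Capra hircus): the receptors NOTCH1, NOTCH2, NOTCH3 and NOTCH4, the ligands JAG1, JAG2 and DLL4, and the target genes HEY1, HEY2 and HES1. They were taken by name, through the pairing of each GeneID with its goat symbol, and all 10 were found among the 17504 genes measured. The ovaries came from 3 Jintang black goats (prolific, by the labels) and 3 Tibetan goats (non-prolific, by the labels), and all were labelled follicular phase. Each library is the whole ovary of 1 goat, and the labels give no age, litter record or treatment. The study asked which ovarian transcripts differ between the breeds.

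Notch proteins are cell-surface receptors that are switched on by ligands of the Jagged and Delta-like families standing on a neighbouring cell. Binding lets an ADAM protease and then the gamma-secretase complex cut the receptor, and the freed intracellular domain enters the nucleus, where it joins RBPJ and a Mastermind protein and turns on HES and HEY genes, which encode transcriptional repressors. In the mouse ovary, JAG1 of germ cells signals to NOTCH2 of the surrounding pregranulosa cells while follicles form. In blood vessels, DLL4 with NOTCH1 and NOTCH4 acts in endothelium, and NOTCH3 acts in smooth muscle cells and pericytes, the mural cells that wrap the vessel wall.

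Expression was given as FPKM, fragments scaled to transcript length and to the mapped fragments of the library, so levels of different genes can be set beside each other. Summed over all genes, FPKM came to between 602511 and 669309 in Jintang ovaries and between 602255 and 682801 in Tibetan ovaries. Absolute depth is unknown. For genes of low FPKM, the most common ratio to the value in Tibetan 1 was between 0.975 and 1.080 in the 5 other libraries. Only ratios near 1 were searched, so this cannot tell whether the libraries were of equal depth. Markers of granulosa cells summed to 433 to 579 FPKM over 10 genes in Jintang and 291 to 1432 FPKM in Tibetan ovaries, though FSHR, CYP19A1, AMH and HSD17B1 among them fell below 1 FPKM in at least 1 ovary. Oocyte markers were low (FIGLA, NOBOX and NLRP5 stayed below 1 FPKM in each ovary), with a summed level of 5.16 to 26.5 FPKM in Jintang and 0.9 to 23.4 FPKM in Tibetan ovaries. Jintang 1 and Jintang 2 had the highest summed luteal markers, at 6405 and 19729 FPKM over 7 genes, against 506 FPKM in Jintang 3 and 360 to 2569 FPKM in Tibetan ovaries. In Jintang 1 TIMP1 alone held 5303.79 FPKM of that sum. There STAR (138.95 FPKM), CYP11A1 (514.96), SCARB1 (113.98) and LHCGR (5.71) lay below Tibetan 3 (139.38, 911.55, 156.09 and 53.39 FPKM). PTGFR (274.05 against 9.23 FPKM), PRLR (53.44 against 2.03) and TIMP1 (against 1297.82) lay above it. STAR, CYP11A1 and LHCGR are also markers of theca cells, and the luteal markers HSD3B1 and OXT were not matched. The luteal list therefore cannot tell luteal from theca tissue. In whole tissue, fewer cells of a type and less RNA per cell cannot be told apart.

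All 10 genes were transcribed in every ovary, from 2.07 FPKM (JAG2 in Tibetan 2) to 81.9 FPKM (NOTCH2 in Tibetan 1), and the breeds overlapped in each of them. None passed the comparison between breeds, which is given after the levels. The order of the levels was shared at the top: NOTCH2 was the highest of the 10 genes in all 6 ovaries, NOTCH3 the second and JAG1 the third. Mean levels over the 6 ovaries were 55.9 ± 18.5 FPKM for NOTCH2, 31.1 ± 7.6 for NOTCH3 and 19.3 ± 3.21 for JAG1 (SD, n = 6). DLL4 followed at 13.2 ± 3.64 FPKM, below JAG1 in all 6 ovaries. Further down, HES1 (8.73 ± 3.58 FPKM), HEY1 (7.18 ± 3.54), NOTCH4 (5.52 ± 1.81), HEY2 (5.08 ± 2.25), NOTCH1 (4.35 ± 2.04) and JAG2 (3.76 ± 1.07) had overlapping ranges, and no pair of neighbours in this order kept it in all 6 ovaries. DLL4 exceeded HES1 in 3 of 6 ovaries and NOTCH4 exceeded HEY2 in 3 of 6.

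**Figure D1:**
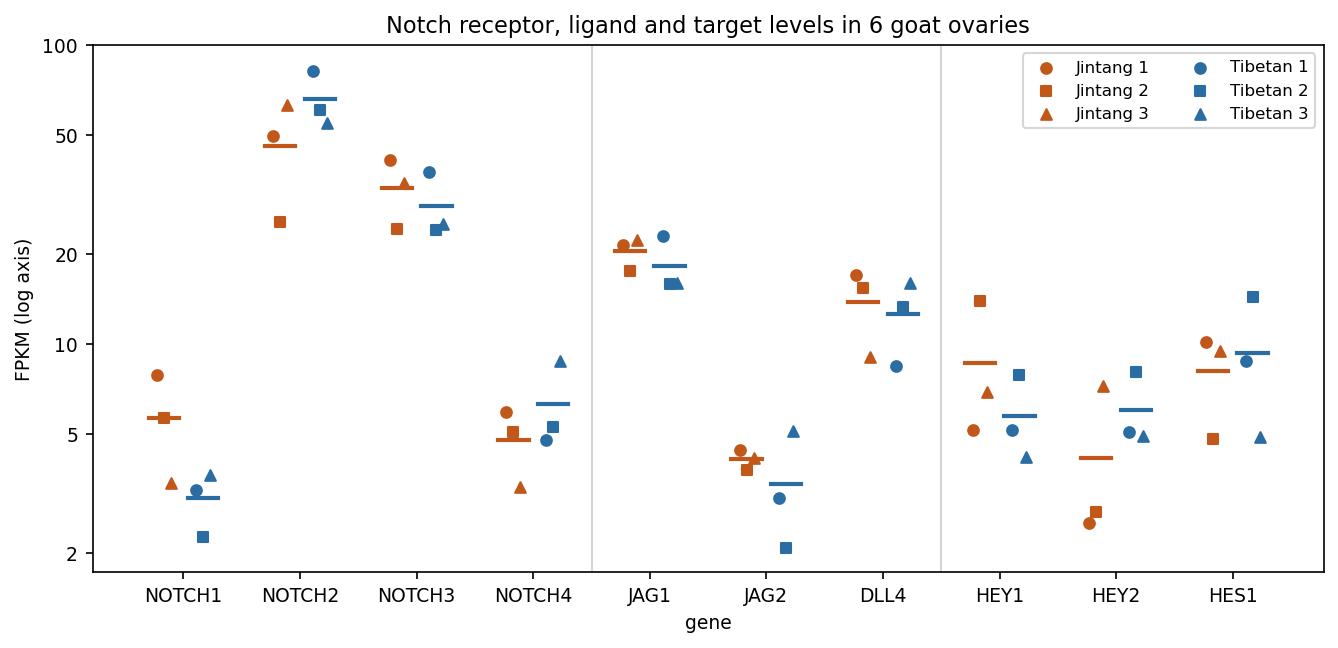
FPKM of the 10 Notch genes on a log axis in 3 Jintang (orange) and 3 Tibetan (blue) ovaries, with 1 symbol per goat and a line at the mean of the breed. NOTCH2 lies highest in every ovary, and the points of the breeds overlap in every gene.

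NOTCH2 (GeneID 102177020), the receptor of granulosa cells in the mouse, was at 49.5, 25.64 and 63.0 FPKM in Jintang 1, 2 and 3, against 81.93, 60.66 and 54.95 FPKM in Tibetan 1, 2 and 3. Jintang 2 was the lowest of the 6 and Tibetan 1 the highest, while Jintang 3 lay above 2 of the Tibetan ovaries. The Jintang mean was 46.0 ± 18.9 FPKM and the Tibetan mean 65.8 ± 14.2 FPKM (SD, n = 3 each). All 3 Jintang values lay below the Tibetan mean. The difference on the log2(FPKM + 1) scale was -0.58 (95% interval -1.43 to 0.27, limma adjusted p = 0.755), and -0.21 without Jintang 2.

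NOTCH3 (GeneID 102189202), a receptor of mural cells, was at 41.38, 24.21 and 34.43 FPKM in the Jintang ovaries, against 37.47, 24.12 and 25.13 FPKM in the Tibetan ovaries. Its lowest values in the breeds were nearly equal, and its highest in the 6 ovaries was 1.72 times its lowest. The difference was 0.19 (95% interval -0.51 to 0.90, limma adjusted p = 0.890), and it ran from 0.03 without Jintang 1 to 0.40 without Jintang 2.

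NOTCH1 (GeneID 102172636), a receptor of endothelium and many other cells, was at 7.84, 5.66 and 3.43 FPKM in the Jintang ovaries, against 3.24, 2.26 and 3.65 FPKM in the Tibetan ovaries. Jintang 1 and Jintang 2 were higher than any Tibetan ovary, and Jintang 3 lay just below Tibetan 3. The means were 5.64 ± 2.21 FPKM in Jintang and 3.05 ± 0.714 FPKM in Tibetan ovaries (SD, n = 3 each). This was the largest of the 10 differences, at 0.67 on the log2(FPKM + 1) scale (95% interval -0.12 to 1.47), with an unadjusted p of 0.0875 and a limma adjusted p of 0.743. It was 0.44 without Jintang 1 and 0.94 without Jintang 3. Jintang 1 and Jintang 2 are also the ovaries with the highest summed luteal markers given above, a sum held in Jintang 1 mostly by TIMP1. They also had the highest summed endothelial markers (540 and 470 FPKM, against 281 FPKM in Jintang 3 and 253 to 387 FPKM in Tibetan ovaries). Over the 6 ovaries NOTCH1 and luteal markers had r = 0.78 (exact permutation p = 0.0736, adjusted p = 0.583 over 60 such relations) and rho = 0.89 (exact permutation p = 0.0333, adjusted p = 0.5), and r was 0.36 without those 2 ovaries.

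NOTCH4 (GeneID 102173344), an endothelial receptor, ran in the other direction, at 5.90, 5.08 and 3.31 FPKM in the Jintang ovaries, against 4.78, 5.25 and 8.77 FPKM in the Tibetan ovaries. Tibetan 3 was the highest and Jintang 3 the lowest, and the other 4 ovaries lay between 4.78 and 5.90 FPKM. The difference was -0.32 (95% interval -1.09 to 0.44, limma adjusted p = 0.816). It was -0.09 without Tibetan 3 and -0.13 without Jintang 3.

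The receptors were next expressed as shares of their summed FPKM, which was 105, 60.6 and 104 FPKM in the Jintang ovaries, against 127, 92.3 and 92.5 FPKM in the Tibetan ovaries. NOTCH3 held 39.6%, 40.0% and 33.1% of the receptor FPKM in Jintang 1, 2 and 3, against 29.4%, 26.1% and 27.2% in the Tibetan ovaries. Each Jintang share was above each Tibetan share, and the means were 37.5% ± 3.88 and 27.6% ± 1.67 (SD, n = 3 each). NOTCH2 held 47.3%, 42.3% and 60.5% in the Jintang ovaries, against 64.3%, 65.7% and 59.4% in the Tibetan ovaries, so that Jintang 3 lay above Tibetan 3. NOTCH1 held 7.49%, 9.34% and 3.29% in the Jintang ovaries, against 2.54%, 2.45% and 3.95% in the Tibetan ovaries. NOTCH4 held between 3.18% and 8.38% in Jintang and between 3.75% and 9.48% in Tibetan ovaries. The exact permutation test over the libraries (2-sided) gave p = 0.1 for NOTCH3, the smallest that 3 ovaries against 3 allow, with an adjusted p of 0.267 over the 4 receptors. For NOTCH1 and NOTCH2 the exact p was 0.2 each (adjusted p = 0.267), and for NOTCH4 it was 0.7. Shares of 1 sum move against each other, so the 4 values are not independent.

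The order of the scarcer receptors was opposite in the breeds, a pattern chosen after its values were seen and given without a test. NOTCH1 was 1.33, 1.11 and 1.04 times as high as NOTCH4 in the Jintang ovaries, against 0.678, 0.43 and 0.416 times in the Tibetan ovaries. In Jintang 3 the levels of the pair were close, at 3.43 FPKM of NOTCH1 and 3.31 FPKM of NOTCH4. The ratio of NOTCH2 to NOTCH3 was likewise without overlap, at 1.2, 1.06 and 1.83 in the Jintang ovaries, against 2.19, 2.51 and 2.19 in the Tibetan ovaries.

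**Figure D2:**
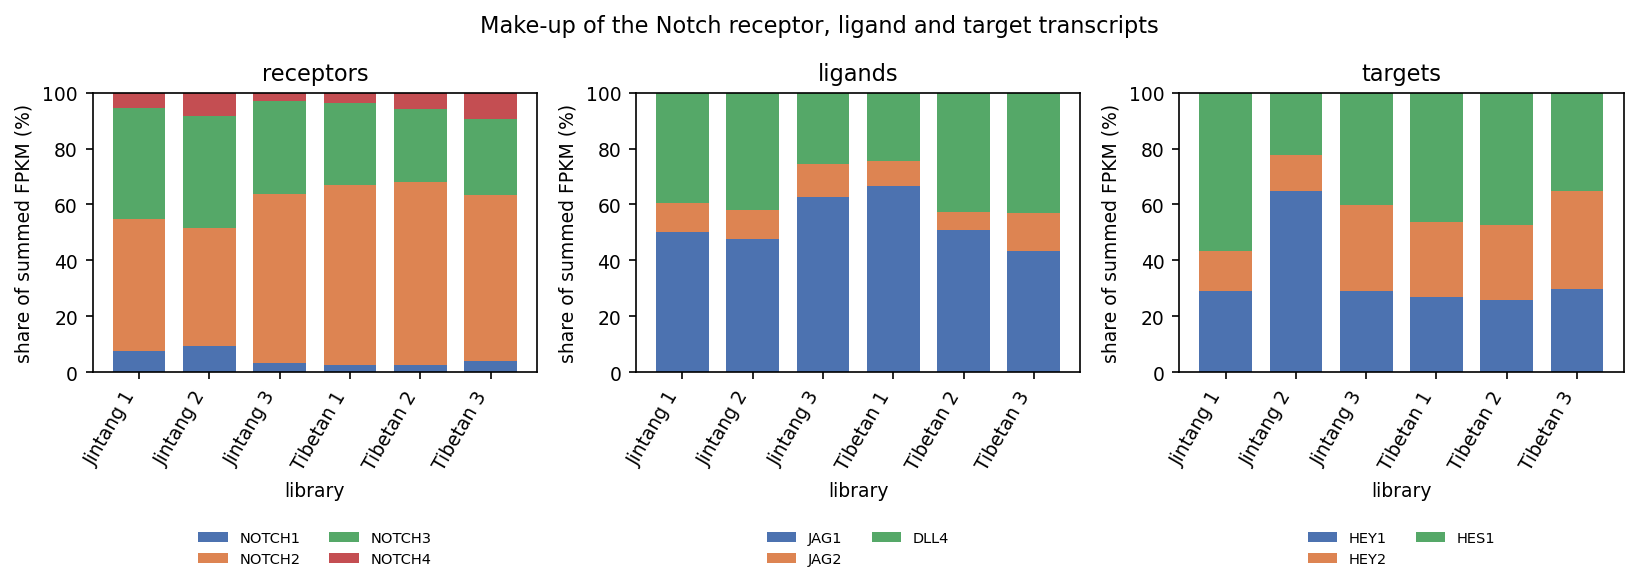
Share of the summed FPKM, in percent, held by each receptor (left), ligand (middle) and target gene (right) in the 3 Jintang and 3 Tibetan libraries. NOTCH3 holds 33.1% to 40.0% of the receptor sum in Jintang and 26.1% to 29.4% in Tibetan ovaries, and HEY1 holds 64.9% of the target sum in Jintang 2.

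Among the ligands, JAG1 (GeneID 102189768) was the steadiest of the 10 genes, with a highest value 1.44 times its lowest. It was at 21.44, 17.56 and 22.20 FPKM in the Jintang ovaries, against 22.93, 15.89 and 16.02 FPKM in the Tibetan ovaries. The difference was 0.16 (95% interval -0.45 to 0.77, limma adjusted p = 0.892), between 0.08 and 0.33 with a library left out. JAG2 (GeneID 102189630), the other Jagged ligand, was at 4.42, 3.78 and 4.16 FPKM in the Jintang ovaries, against 3.04, 2.07 and 5.09 FPKM in the Tibetan ovaries. The Jintang values lay close together, inside the Tibetan range, and the difference was 0.27 (95% interval -0.49 to 1.04, limma adjusted p = 0.850), with 0.04 without Tibetan 2 and 0.54 without Tibetan 3.

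DLL4 (GeneID 102180396), the Delta-like ligand of sprouting and arterial endothelium, was at 16.95, 15.42 and 9.06 FPKM in the Jintang ovaries, against 8.45, 13.32 and 15.92 FPKM in the Tibetan ovaries. Jintang 3 and Tibetan 1 were low and the other 4 ovaries high. The difference was 0.12 (95% interval -0.67 to 0.91, limma adjusted p = 0.933), and it turned to -0.12 without Tibetan 1 and to -0.04 without Jintang 1. JAG1 was 1.01 to 2.71 times as high as DLL4, with ratios of 2.45 in Jintang 3 and 2.71 in Tibetan 1 and of at most 1.26 in the other 4 ovaries.

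The target genes spread more widely among goats of 1 breed than the ligand JAG1 did. HEY1 (GeneID 102178088), a HEY family repressor, was at 5.16, 13.88 and 6.88 FPKM in the Jintang ovaries, against 5.13, 7.84 and 4.17 FPKM in the Tibetan ovaries. Jintang 2 alone exceeded 8 FPKM, and the difference was 0.46 (95% interval -0.45 to 1.37, limma adjusted p = 0.792). Without Jintang 2 it was 0.09.

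HEY2 (GeneID 102185747), its paralogue, was at 2.52, 2.73 and 7.20 FPKM in the Jintang ovaries, against 5.07, 8.04 and 4.90 FPKM in the Tibetan ovaries. Jintang 1 and Jintang 2 were the lowest of the 6, and Jintang 3 was second only to Tibetan 2. The difference was -0.53 (95% interval -1.45 to 0.39, limma adjusted p = 0.773). It was -0.31 without Jintang 1 and -0.92 without Jintang 3. HEY1 was 5.08 times as high as HEY2 in Jintang 2 and 2.05 times in Jintang 1, against 0.956 times in Jintang 3 and 0.851 to 1.01 times in the Tibetan ovaries.

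HES1 (GeneID 102177474), a repressor whose transcript is short-lived, was at 10.12, 4.79 and 9.49 FPKM in the Jintang ovaries, against 8.77, 14.31 and 4.89 FPKM in the Tibetan ovaries. Each breed held 1 ovary below 5 FPKM. The difference was -0.13 (95% interval -1.10 to 0.85, limma adjusted p = 0.946). It turned to 0.17 without Jintang 2 and to 0.21 without Tibetan 2. Immediate-early genes, which respond within minutes to stress and handling, had mean log2(FPKM + 1) values over 13 genes of 5.66, 4.22 and 4.38 in the Jintang ovaries, against 4.79, 5.13 and 4.72 in the Tibetan ovaries. Within that list FOS, JUN and EGR1 were lower and IER3 higher in Jintang ovaries at an unadjusted p under 0.05, with a limma adjusted p of 0.743 each. Heat-shock genes, another list that responds to stress, did not overlap in their mean, at 6.03, 6.53 and 6.16 in the Jintang ovaries, against 7.34, 7.11 and 7.99 in the Tibetan ovaries. All 6 were negative, with a median difference of -1.12. Of them 4 had an unadjusted p under 0.05, where 3.35% of all genes were lower with such a p. The Jintang values lay below all Tibetan values in 3, as in 6.70% of all genes. None passed after adjustment. The part of either list in the level of HES1 or of the other Notch genes was not tested.

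The test between the breeds was fitted over the 13067 genes that reached 1 FPKM in 3 or more libraries, and all 10 Notch genes were among them. None of the 10 reached an adjusted p under 0.05, where 0 of 13067 genes did (0%), and none had an unadjusted p under 0.05, where 6.17% of all genes did (2.82% higher and 3.35% lower in Jintang ovaries). None of the 10 had ranges without overlap, against 9.90% of all genes (3.20% with the Jintang ovaries above and 6.70% with them below). The differences were positive for 6 genes and negative for 4, with a median of 0.14, while the median over all genes was -0.10. Another scaling between libraries moved that overall median to 0.02, so a difference is also given relative to the median of all genes: 0.77 for NOTCH1, 0.55 for HEY1, -0.43 for HEY2 and -0.48 for NOTCH2, the widest on either side. In all 10 genes the widest range among goats of 1 breed, from 0.50 (JAG1) to 1.38 (HES1) on the log2 scale, was larger than the difference between breeds. The intervals still include differences of more than 1 on the log2(FPKM + 1) scale for NOTCH1, JAG2 and HEY1 upward and for NOTCH2, NOTCH4, HEY2 and HES1 downward. The whole table depended on single libraries: leaving out Jintang 3 gave 13 genes past the adjusted threshold. The unadjusted p was under 0.05 for 806 genes with all libraries, for 1874 without Jintang 3, for 535 without Jintang 2, for 352 without Jintang 1 and for 336 without Tibetan 1. Without Jintang 3 the unadjusted limma p was also under 0.05 for 2 of the 10 Notch genes, NOTCH1 (0.0271) and HEY2 (0.0296). Under that setting it was so for 1874 of all 13067 genes. Their limma adjusted p was then 0.296 and 0.307, and 0.296 was the smallest of any Notch gene under the settings tried.

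**Figure D3:**
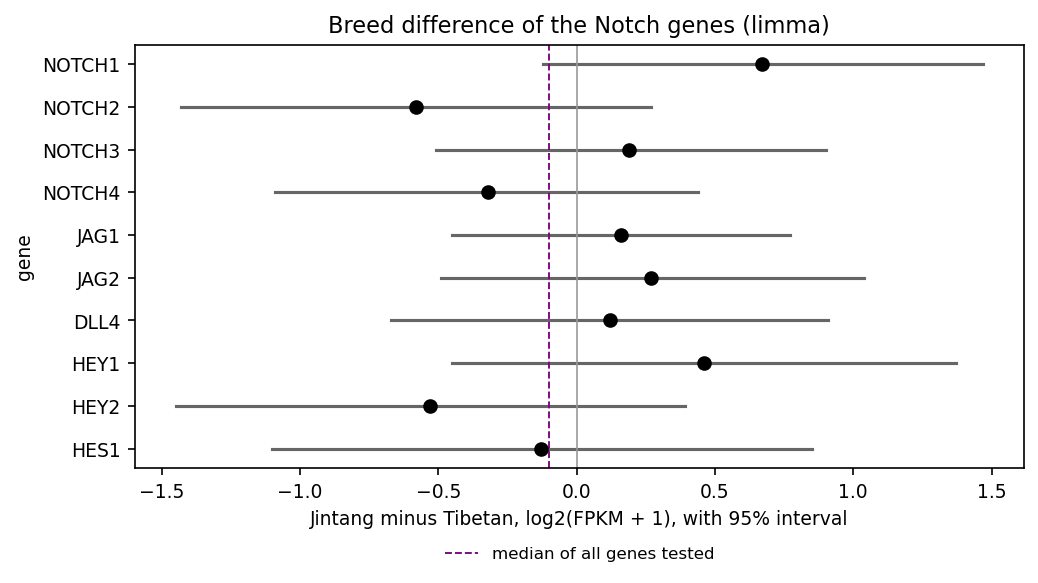
Difference of each Notch gene, Jintang minus Tibetan, in log2(FPKM + 1) on the x axis, as a point with its 95% interval from limma (3 ovaries per breed). All 10 intervals include 0, and the dashed line at -0.10 is the median of all genes tested.

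The levels were then set beside markers of the cell types in which Notch genes act, as mean log2(FPKM + 1) of a marker list without the Notch genes. The 10 genes against 6 lists (endothelial, mural, granulosa, fibroblast, luteal and macrophage) made 60 relations over the 6 ovaries, and none passed after adjustment (smallest adjusted p = 0.167). By Pearson's r 3 relations had an unadjusted p under 0.05, all of NOTCH2, and by Spearman's rho the same 3 and that of NOTCH1 with luteal markers given above. The share of all genes so related to these lists is not given here. The counts therefore cannot tell whether Notch genes differ from others. NOTCH2 was high where smooth muscle genes were high: the mural list stood at 7.05, 6.58 and 7.59 in the Jintang ovaries, against 7.64, 7.12 and 7.25 in the Tibetan ovaries. Pearson's r was 0.93 (exact permutation p = 0.00694, adjusted p = 0.208) and Spearman's rho 0.94 (exact permutation p = 0.0167, adjusted p = 0.5), with n = 6. Without Jintang 2 and Tibetan 1, the ovaries farthest from the median, r was 0.69. With luteal markers NOTCH2 went in the opposite direction, with r = -0.93 (exact permutation p = 0.00278, the smallest that 6 ovaries allow, adjusted p = 0.167) and rho = -0.94 (exact permutation p = 0.0167, adjusted p = 0.5). Here r was -0.87 without Jintang 1 and Jintang 2. With endothelial markers r was -0.78 (exact permutation p = 0.0431, adjusted p = 0.583) and rho was -0.89 (exact permutation p = 0.0333, adjusted p = 0.5). That r was again -0.78 without Jintang 1 and Jintang 2. With granulosa markers NOTCH2 had r = -0.11 (exact permutation p = 0.883, adjusted p = 0.93) and rho = -0.03. NOTCH3 with mural markers had r = 0.51 (exact permutation p = 0.289, adjusted p = 0.773) and rho = 0.31. For NOTCH3 r was 0.06 without Jintang 2 and Tibetan 1.

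**Figure D4:**
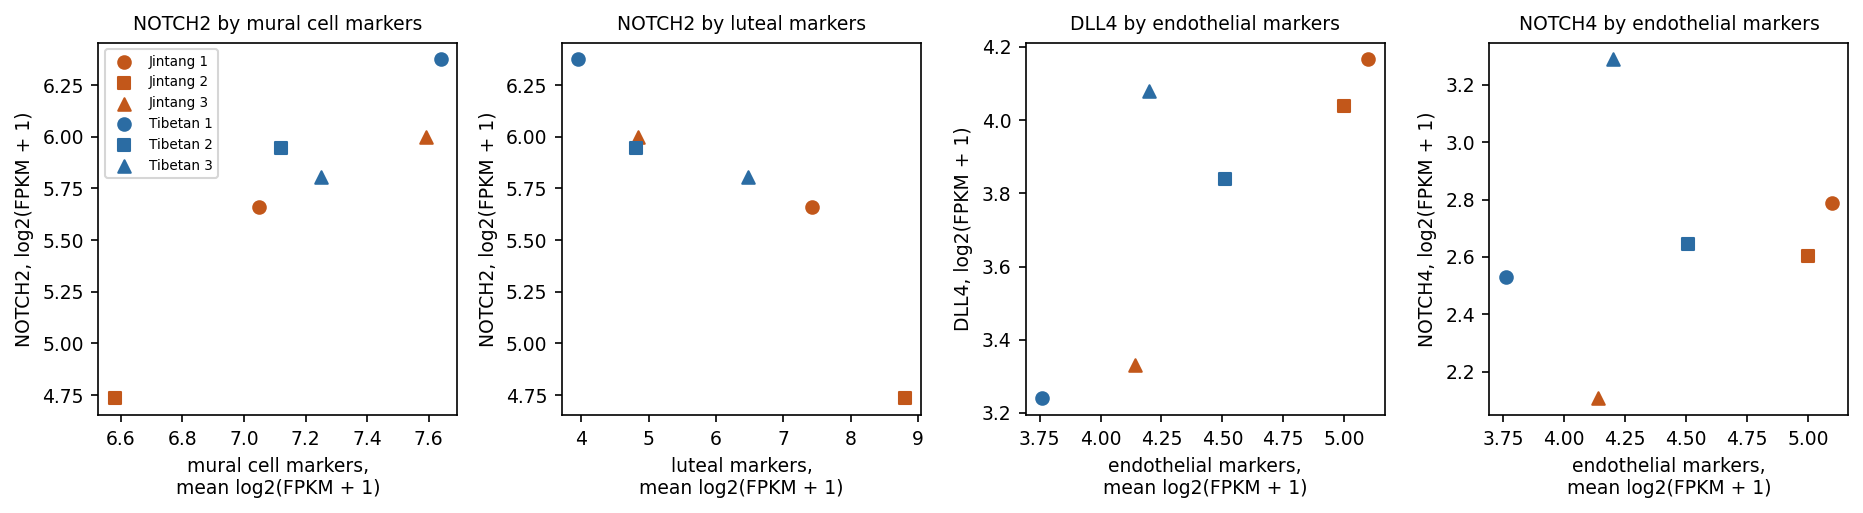
Log2(FPKM + 1) of NOTCH2, DLL4 and NOTCH4 (y axes) against the mean log2(FPKM + 1) of a marker list (x axes), with 1 point per ovary. NOTCH2 is highest in Tibetan 1, where mural markers are highest (7.64) and luteal markers lowest (3.96). Over the 6 ovaries together NOTCH4 shows no such order with endothelial markers (r = 0.15). Its r is 0.99 among the Jintang and 0.24 among the Tibetan ovaries.

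DLL4 followed the endothelial list more closely than NOTCH4 did, though neither relation passed. The endothelial list stood at 5.10, 5.0 and 4.14 in the Jintang ovaries, against 3.76, 4.51 and 4.20 in the Tibetan ovaries. For DLL4 r was 0.80 (exact permutation p = 0.0778) and rho 0.83 (exact permutation p = 0.0583), and r was 0.68 without Jintang 1 and Jintang 2. For NOTCH4 r was 0.15 (exact permutation p = 0.81) and rho 0.54 (exact permutation p = 0.297), and r was 0.18 without the same pair. The adjusted p over the 60 relations was 0.583 for the r of DLL4 and 0.7 for its rho, and 0.93 and 0.811 for those of NOTCH4. The difference between the relations was not tested. DLL4 was as closely related to other lists: with luteal markers r was 0.80 (exact permutation p = 0.0639, adjusted p = 0.583), or 0.85 without Jintang 1 and Jintang 2, and with mural markers it was -0.79 (exact permutation p = 0.0667, adjusted p = 0.583).

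Both genes were lower in Jintang ovaries when set against the endothelial list, whose own mean overlapped between the breeds. Of its 13 genes 11 had a higher mean in Jintang ovaries, with a median difference of 0.50, against -0.10 over all genes. Each of the 13 overlapped between the breeds, and none passed after adjustment. Their differences ran from 2.09 (PLVAP) and 1.39 (PECAM1) to -0.03 (KDR) and -0.11 (EMCN). DLL4 itself had a difference of 0.12 and NOTCH4 of -0.32, so for DLL4 the lower value is not a lower level. The share of all genes without overlap against the list is not given here. Log2 NOTCH4 minus the list mean was -2.31, -2.39 and -2.03 in the Jintang ovaries, against -1.23, -1.86 and -0.91 in the Tibetan ovaries, without overlap. Log2 DLL4 minus the list mean was -0.93, -0.96 and -0.81 in the Jintang ovaries, against -0.52, -0.67 and -0.12 in the Tibetan ovaries, also without overlap. The differences between the breed means were -0.91 for NOTCH4 and -0.47 for DLL4, each with an exact permutation p of 0.1, the smallest that the design allows, and an adjusted p of 0.4 over the 8 genes set against a list. Among the endothelial genes PLVAP had the widest spread, at 45.95, 20.21 and 0.98 FPKM in the Jintang ovaries, against 0.30, 2.50 and 4.62 FPKM in the Tibetan ovaries. Without it the differences were -0.79 and -0.34, still without overlap. The other 5 genes set against the endothelial list (NOTCH1, JAG1, JAG2, HEY1 and HEY2) overlapped, as did NOTCH3 set against the mural list, with a difference of 0.46 (exact permutation p = 0.2).

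Among the 10 genes themselves, 20 of 45 pairs were positively correlated over the 6 ovaries and none passed after adjustment (smallest adjusted p = 0.188). NOTCH1 and HEY2 ran against each other: HEY2 was lowest in Jintang 1 and Jintang 2, where NOTCH1 was highest, and highest in Tibetan 2, where NOTCH1 was lowest. Pearson's r was -0.93 (exact permutation p = 0.00417, adjusted p = 0.188) and Spearman's rho -0.94 (exact permutation p = 0.0167), and r was -0.72 without the 2 ovaries farthest from the median of NOTCH1. NOTCH3 and JAG1 ran together, with r = 0.92 (exact permutation p = 0.0736, adjusted p = 0.786) and rho = 0.77 (exact permutation p = 0.103), and r = 0.94 without the 2 farthest ovaries. JAG1 was 0.518 to 0.725 times as high as NOTCH3 in the Jintang ovaries and 0.612 to 0.659 times in the Tibetan ovaries.

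The genes of most similar pattern were sought among all tested genes by Pearson's r of log2(FPKM + 1) over the 6 ovaries, as a description. With 6 points many genes come close by this measure: 129 genes with a symbol reached r over 0.95 with NOTCH2, 111 with HEY2, 40 with HES1, 32 with NOTCH1, and 4 with JAG1. Nearest to NOTCH2 were TBC1D2B (r = 0.991), NEK7 (0.990) and XIAP (0.989). Nearest to NOTCH1 were HIPK2 (0.996), NECAP2 (0.996) and CPTP (0.986). HIPK2, a protein kinase, stood at 26.99, 17.37 and 5.60 FPKM in the Jintang ovaries, against 5.29, 2.34 and 6.73 FPKM in the Tibetan ovaries. Nearest to DLL4 was LYVE1 (0.994), a hyaluronan receptor of lymphatic endothelium and some macrophages, at 31.81, 28.90 and 14.38 FPKM in the Jintang ovaries, against 12.33, 25.84 and 30.61 FPKM in the Tibetan ovaries. The nearest gene was ZDHHC9 for NOTCH3 (0.986), UPRT for NOTCH4 (0.970), CNTN2 for JAG1 (0.975), BCL2L13 for JAG2 (0.997), APEX1 for HEY2 (0.998) and DHX40 for HES1 (0.995). KIF15, a kinesin of the mitotic spindle, was among the 3 nearest to HEY1 (0.981), at 0.51, 4.62 and 1.50 FPKM in the Jintang ovaries, against 0.28, 1.38 and 0.29 FPKM in the Tibetan ovaries.

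The rest of the pathway was read from lists of 62 entries, of which 55 were measured and 50 tested. None passed after adjustment. Before adjustment 1 was higher and 1 lower in Jintang ovaries with p under 0.05 (2.82% and 3.35% of all genes), and ranges without overlap were found in 2 of 50 genes (4%), against 9.90% of all genes. The median difference was -0.11, against -0.10 over all genes.

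Genes that cut the receptor showed no common direction, with 4 of 9 positive and a median of -0.08. FURIN, the protease that cuts the newly made receptor, averaged 50.5 ± 18.2 FPKM in Jintang and 27.9 ± 9.03 FPKM in Tibetan ovaries (SD, n = 3 each; log2 difference 0.81, limma adjusted p = 0.743). APH1B, a subunit of gamma-secretase, was at 3.16, 2.65 and 5.89 FPKM in the Jintang ovaries, against 5.89, 7.58 and 9.44 FPKM in the Tibetan ovaries. Its highest Jintang value equalled its lowest Tibetan value, and its difference of -0.85 had an unadjusted p of 0.0364 (limma adjusted p = 0.743).

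All 9 genes of the nuclear complex and its acetyltransferases were negative, with a median of -0.39 and none past the test, while 41% of all genes were positive. The mean log2(FPKM + 1) of the 9 was 3.99, 3.62 and 4.35 in the Jintang ovaries, against 4.67, 4.39 and 4.19 in the Tibetan ovaries. The low ovaries were Jintang 1 and Jintang 2, those with the highest summed luteal markers, and Jintang 3 lay inside the Tibetan range. RBPJ, the DNA-binding protein of the complex, was at 19.47, 11.16 and 20.65 FPKM in the Jintang ovaries, against 21.84, 16.03 and 17.79 FPKM in the Tibetan ovaries, with the smallest difference of the 9 (-0.15). The acetyltransferases KAT2B and KAT2A had the largest differences: KAT2B averaged 21.2 ± 7.55 FPKM in Jintang and 35.4 ± 8.66 FPKM in Tibetan ovaries (-0.74, unadjusted p = 0.0591), and KAT2A averaged 20.2 ± 3.68 and 34.4 ± 10.1 FPKM (-0.71, unadjusted p = 0.0501), both with a limma adjusted p of 0.743. The 9 signs were kept under each scaling, filter and pseudocount tried, and without Jintang 2 they were 7 negative and 2 positive with a median of -0.27. Corepressors of RBPJ were negative in 6 of 7 genes, with a median of -0.21, and in 5 of 7 under median-ratio scaling. Their mean was 4.49, 4.50 and 4.81 in the Jintang ovaries, against 4.97, 4.81 and 4.75 in the Tibetan ovaries, so that Jintang 1 and Jintang 2 were again low and Jintang 3 lay inside the Tibetan range. The part of luteal or theca tissue in either list was not tested. HDAC1, a histone deacetylase, was without overlap at 46.63, 45.68 and 51.02 FPKM in the Jintang ovaries, against 56.19, 52.71 and 53.30 FPKM in the Tibetan ovaries, with a small difference (-0.18, limma adjusted p = 0.864). CTBP2 had a difference of -0.58 and SPEN of -0.45 (limma adjusted p = 0.743 and 0.758).

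Fringe enzymes, which add sugars to the receptor and change its response to each ligand family, differed among themselves. LFNG was at 12.89, 9.16 and 4.99 FPKM in the Jintang ovaries, against 4.87, 7.36 and 4.16 FPKM in the Tibetan ovaries (0.58, limma adjusted p = 0.756). MFNG had a difference of 0.41 (limma adjusted p = 0.770), and RFNG, the most abundant of the 3, was between 103.71 and 131.90 FPKM in Jintang and between 114.88 and 210.88 FPKM in Tibetan ovaries. In receptor trafficking and turnover 7 of 13 genes were positive and the median was 0.00. DTX3, a Deltex family gene, averaged 42.5 ± 25.6 FPKM in Jintang and 75.0 ± 32.8 FPKM in Tibetan ovaries (-0.92, limma adjusted p = 0.743), and NUMBL, a relative of the Notch inhibitor NUMB, had a difference of -0.64 (limma adjusted p = 0.755).

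Of the other ligands all 6 entries were measured and 3 tested, and of the other targets 5 of 10 entries were measured and 4 tested (HES2, HES4, HES5, HES7 and NRARP were not matched). DLL1 was between 1.30 and 7.68 FPKM in Jintang and between 2.32 and 3.78 FPKM in Tibetan ovaries, DLL3 and DLK1 stayed below 1 FPKM in every ovary, and DLK2 had a difference of -0.30 (limma adjusted p = 0.840). EGFL7, a secreted endothelial protein that is also in the endothelial list, averaged 21.4 ± 6.88 FPKM in Jintang and 13.7 ± 5.36 FPKM in Tibetan ovaries (0.62, limma adjusted p = 0.743). HEYL, a target of NOTCH3 in vascular smooth muscle, was higher than HEY1 and HEY2 in each ovary, at 32.86, 29.60 and 17.90 FPKM in the Jintang ovaries, against 22.27, 18.01 and 24.03 FPKM in the Tibetan ovaries (0.27, limma adjusted p = 0.833). EFNB2, an ephrin of arterial endothelium, was the 1 gene of these lists whose Jintang values all exceeded the Tibetan values, at 9.81, 17.27 and 9.69 FPKM, against 4.37, 5.67 and 8.82 FPKM in the Tibetan ovaries, where 3.20% of all genes were. Its difference was 0.86, with an unadjusted p of 0.038 and a limma adjusted p of 0.743. EFNB2 is also 1 of 5 measured arterial markers, whose mean log2(FPKM + 1) was 5.31, 5.11 and 4.70 in the Jintang ovaries, against 4.0, 4.54 and 4.62 in the Tibetan ovaries, without overlap. Of these NRP1, a co-receptor for VEGF, was without overlap as well (0.73, limma adjusted p = 0.743), and GJA5, an arterial connexin, had a difference of 1.41 (unadjusted p = 0.0257, limma adjusted p = 0.743). GJA5, CXCR4 and GJA4 overlapped. CXCR4 had a difference of 0.55 (limma adjusted p = 0.767), and GJA4 ran the other way at -0.28 (limma adjusted p = 0.884). The part of arterial endothelium in the level of EFNB2 was not tested.

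**Figure D5:**
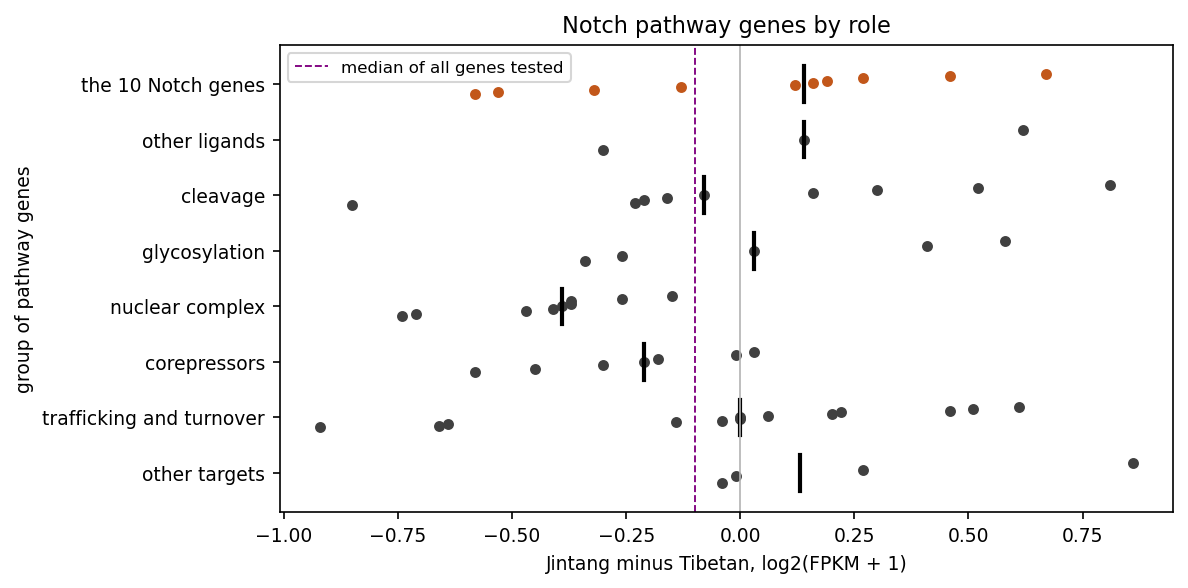
Difference, Jintang minus Tibetan, in log2(FPKM + 1) on the x axis for the 10 Notch genes (orange) and the other tested pathway genes (grey) in groups by role, with a bar at the median of each group. The 9 genes of the nuclear complex all lie below 0, with a median of -0.39, and the median of all genes tested is -0.10 (dashed line).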

How the data were processed

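Total RNA was extracted with TRIzol and made into NEBNext libraries, per the labels' protocols. The authors deposited 1 table of FPKM values per goat. TopHat2 2.0.10, Bowtie2 2.1.0 and RSEM 1.2.0 are listed without roles, per the submitters' processing notes. Build, annotation, read length and strand: not given in the sources used here. Coordinates were therefore left out. FPKM is relative within a library, so very abundant genes lower the rest. A whole-series table held the same 6 columns.

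Symbols came from the RefSeq table of ARS1.2 (16459 GeneIDs, 9 by accession, 1036 unmatched). Of 201 list entries 23 had no gene. Genes with at least 1 FPKM in 3 libraries were tested with limma 3.58.1 (R 4.3.3, trend) on log2(FPKM + 1), which understates changes of low genes, with Benjamini-Hochberg adjustment over all genes tested, 2-sided. Single values used exact permutation tests (scipy 1.17.1). The procedure was also run on simulated data, and the outcome is not given here. Members and lists were chosen with earlier results of these data known. Named were the 10 genes, up to 2 genes with the smallest p per pathway list, those without overlap, and, of the 3 genes nearest to each in pattern, 1 to 3. Each library is 1 goat, so p-values measure the spread between animals.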

Additional observations from a re-analysis of the deposited data

How the results depend on the processing

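The 10 differences were recomputed with a pseudocount of 0.1 or 0.01, a minimum of 5 FPKM (which removes NOTCH1 and JAG2) or no minimum, median-ratio and TPM scaling, a replicate block, and each library left out. None of the 128 values passed (smallest adjusted p 0.296) and 4 changed sign, all with a library left out: DLL4 ran from -0.12 to 0.38 and HES1 from -0.48 to 0.21. The median of the 10 genes ran from 0.00 to 0.13 with a library left out, and was 0.27 with median-ratio scaling. Genes passing over the whole table numbered 0 to 13, and genes with an unadjusted p under 0.05 336 to 1874, with a library left out (13 and 1874 without Jintang 3). No other setting called a gene. The replicate block gave 0 calls and 581 genes with an unadjusted p under 0.05. Deviations of same-numbered goats correlated at -0.02, -0.21 and -0.47, and those of differently numbered goats at -0.34 to 0.45. With 3 goats a breed this cannot tell whether the numbers pair the animals, and the labels give no pairing. Without a library the share difference of NOTCH4 ran from -1.90 to 1.01 percentage points, NOTCH1 relative to endothelial markers from -0.24 to 0.32 and HEY1 from -0.38 to 0.31, and the cause was not tested. Leaving out the 2 farthest ovaries turned r to 0.33 for NOTCH4 with granulosa markers (-0.41 with all) and to 0.19 for HEY1 with mural markers (-0.68 with all). The list without PLVAP was chosen after seeing the data. With 3 goats a breed no exact test between the breeds can go below 0.1, and the fragments behind a low value such as JAG2 are unknown.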

Other observations

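Of the 45 ratios between pairs of the 10 genes, 5 had no overlap between the breeds (11.1%). Among single genes 9.90% had none, which is a different measure. The 45 ratios share 10 genes, and ratios between other genes are not given here. The count therefore cannot tell whether Notch genes differ from others. The ratios are given as values, picked after they were seen. Beside the receptor pairs given above, NOTCH2 was 2.31, 1.46 and 2.84 times as high as JAG1 in the Jintang ovaries, against 3.57, 3.82 and 3.43 times in the Tibetan ovaries. NOTCH4 was 0.348, 0.329 and 0.365 times as high as DLL4 in the Jintang ovaries, against 0.566, 0.394 and 0.551 times in the Tibetan ovaries. The ratio of NOTCH4 to JAG2 was 1.33, 1.34 and 0.796 in the Jintang ovaries, against 1.57, 2.54 and 1.72 in the Tibetan ovaries. NOTCH1 and NOTCH4 were the 1 pair whose order was opposite between the breeds in all 6 ovaries.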
